A study of Mus musculus with 24 samples.

Results

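Matrix metalloproteinases are secreted or membrane-bound zinc enzymes that cut collagens and other proteins of the extracellular matrix, and the tissue inhibitors of metalloproteinases (TIMPs) block them. The 10 genes described here are 6 proteases, Mmp2, Mmp3, Mmp9, Mmp13, Mmp14 and Mmp19, and all 4 TIMPs, Timp1, Timp2, Timp3 and Timp4, taken by name from 19938 genes measured on the array, where each of the 10 had 1 probe set. RNA came from epididymal white fat, a visceral depot beside the epididymis, of 24 wild-type male C57Bl/6 mice in 4 groups of 6, with 1 array for each mouse. The groups were conventional mice fed fish oil, germ-free mice fed fish oil, conventional mice fed lard and germ-free mice fed lard. The diets held equal energy, with 45% of it from fat, which was menhaden fish oil, rich in omega-3 fatty acids, or lard, rich in saturated and monounsaturated ones, so all 4 groups were on a high-fat diet. Feeding began at 11 weeks of age and lasted 11 weeks, and mice were fasted for 4 h before tissue was taken. Germ-free mice live without microbes from birth in isolators, so bacterial status and colony cannot be told apart.

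The proteases are made as inactive precursors and become active when a propeptide is removed, by other proteases or by plasmin. Mmp14 sits in the cell membrane and activates the precursor of Mmp2 in a complex that also holds Timp2. In fat, matrix has to be remodelled as adipocytes enlarge and as vessels and immune cells enter, and adipocytes, their progenitors and macrophages all make members of both families. Mmp3 and Mmp13 lie in a row of related protease genes on chromosome 9, whereas Timp1, Timp3 and Timp4 each lie inside a synapsin gene.

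Of the members called with diet in both conventional and germ-free mice, those with a listed promoter are shown by sequence because Mmp3 and Mmp13 are neighbours that moved together, while Timp2 lies elsewhere. Each line gives the 150 bases that end 1 base before the transcription start (RefSeq, GRCm38.p6, strand of the gene), and capitals mark the letters TGANTCA, the core of the site that AP-1 proteins such as Fos bind. The windows are chr9:7445672-7445821 on the + strand for Mmp3, chr9:7272364-7272513 on the + strand for Mmp13 and chr11:118355412-118355561 on the - strand for Timp2. Mmp10, at chr9:7502192-7502341, and the second listed start of Mmp12, at chr9:7347224-7347373, both on the + strand, are neighbours in the same row and were chosen for display after their values were seen.
Mmp3: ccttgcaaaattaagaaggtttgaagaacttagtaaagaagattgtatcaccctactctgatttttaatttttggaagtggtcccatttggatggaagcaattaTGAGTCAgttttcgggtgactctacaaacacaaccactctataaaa
Mmp13: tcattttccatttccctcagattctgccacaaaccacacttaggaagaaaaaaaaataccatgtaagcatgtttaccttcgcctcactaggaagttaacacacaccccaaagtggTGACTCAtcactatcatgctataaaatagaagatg
Mmp10: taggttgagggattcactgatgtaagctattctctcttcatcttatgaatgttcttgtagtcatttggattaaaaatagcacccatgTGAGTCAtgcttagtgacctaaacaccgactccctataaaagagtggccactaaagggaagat
Mmp12, second start: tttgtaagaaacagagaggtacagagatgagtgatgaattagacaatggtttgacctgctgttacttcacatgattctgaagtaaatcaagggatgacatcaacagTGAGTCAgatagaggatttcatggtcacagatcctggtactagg
Timp2: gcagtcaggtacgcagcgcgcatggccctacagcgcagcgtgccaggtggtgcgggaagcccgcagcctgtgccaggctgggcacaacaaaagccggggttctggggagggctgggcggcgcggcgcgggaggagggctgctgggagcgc
The motif reads the same on both strands. It began 46 bases before the start in Mmp3, 35 in Mmp13, 63 in Mmp10 and 44 at the second start of Mmp12. All searches covered the 250 bases before the start, and no copy was found there in Timp2, Mmp8 or the first start of Mmp12. Promoters were found for 7 of the 10 members, and 2 of these 7, Mmp3 and Mmp13, held the motif. Among 32851 mouse promoters, 6.75% held it in a window of the same length. The letters TATAAA, searched on the gene's strand alone, were in 7.59%, and both were in 0.791%. Mmp3, Mmp13 and Mmp10 held both. A match in letters is a description and not a measured binding site.

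The arrays were of similar overall level, with medians from 7.09 to 7.20 on the log2 scale, and no 2 arrays held identical values. The adipocyte hormone Adipoq was high in every mouse, between 12.60 and 13.75. Lard-fed conventional mice 5 and 6 stood apart from the other 4 mice of their group: their mean over 11 markers of lipid-associated macrophages was 12.47 and 12.57, against at most 11.85, and their mean over 10 adipocyte markers was 12.42 and 12.41, against at least 12.77. The mean of 17 liver transcripts lay between 8.73 and 10.12 in germ-free mice on fish oil and between 6.79 and 8.08 in those on lard. Intestinal epithelium transcripts reached a mean of 9.38 in lard-fed germ-free mouse 4. Values without these mice, or from a fit with the liver transcript mean added (the liver covariate), are given for some results. These are mostly ones where a call ended or turned or a value moved by over 1.5 times, and not all such cases are given. The liver covariate and the diet can hardly be told apart among germ-free mice. The same holds for the covariate and bacterial status with fish oil, where the liver mean of conventional mice lay between 7.11 and 8.81. Values of the interaction with this covariate share both limits. In whole fat, fewer cells of a type and less RNA per cell cannot be told apart.

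In conventional mice, 7 of the 10 genes were higher with lard (Mmp2, Mmp3, Mmp13, Mmp14, Mmp19, Timp1 and Timp2), 1 was lower (Timp4), and Mmp9 and Timp3 did not pass the test. Among all 19938 genes, 15.4% were called higher and 15.6% lower. The median difference of the 10 was 0.47, against -0.04 for all genes. In germ-free mice 5 genes were higher with lard (Mmp2, Mmp3, Mmp13, Mmp19 and Timp2) and 0 were lower in limma, where 6 were higher and 1 lower at an unadjusted p under 0.05. There 20.4% of all genes were called higher and 27.1% lower, and the medians were 0.44 for the 10 and -0.08 for all genes. A call is a Benjamini-Hochberg adjusted p under 0.05 over all genes in limma, and differences are of mean log2 values, so that 1 unit is a doubling. No mice were on a baseline diet, so a gene raised by lard and a gene lowered by fish oil cannot be told apart. Words such as rise and fall mean lard relative to fish oil.

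**Figure D1:**
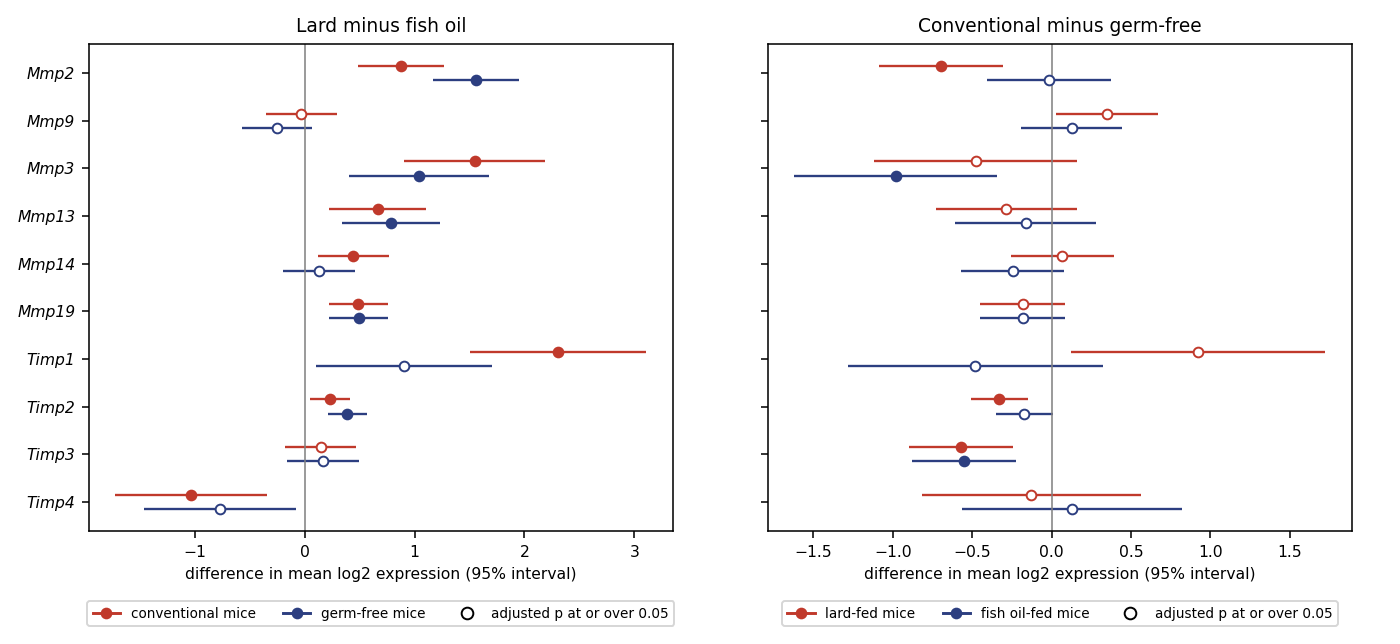
Differences in mean log2 expression of the 10 genes with 95% intervals, lard minus fish oil on the left (red for conventional, blue for germ-free mice) and conventional minus germ-free on the right (red for lard-fed, blue for fish oil-fed mice). Open circles did not reach an adjusted p under 0.05. With lard, Timp1 had the largest difference in conventional mice (2.31) and Mmp2 in germ-free mice (1.56), while Timp4 lay below 0 in both.

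Mmp2 is a gelatinase that cuts denatured collagen and the type IV collagen of basement membranes. It had the largest diet difference of the 10 in germ-free mice. Its level was 9.82 at the lowest, 10.08 at the median and 10.47 at the highest in germ-free mice on fish oil, and 11.33, 11.63 and 12.17 in lard-fed germ-free mice. In conventional mice these were 9.56, 10.18 and 10.38 with fish oil and 10.39, 10.82 and 11.71 with lard. Lard and fish oil did not overlap in either case, although in conventional mice the highest fish oil mouse and the lowest lard mouse nearly met. Lard-fed germ-free mice were 2.94-fold higher than fish oil-fed ones (1.56 ± 0.19 SE, adjusted p = 1.12e-06 in limma), which placed Mmp2 at rank 69 of 19938 from the top. The rise in conventional mice was 1.84-fold (0.88 ± 0.19, adjusted p = 0.000884 in limma). Without lard-fed conventional mice 5 and 6 it was 0.57 (adjusted p = 0.0144 in limma).

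Mmp9, the other gelatinase, is made mainly by neutrophils and macrophages. Its medians in conventional mice were 7.47 with fish oil and 7.42 with lard, and those in germ-free mice 7.37 and 7.05. Values ranged from 7.16 to 7.90, from 6.99 to 7.82, from 6.73 to 7.71 and from 6.89 to 7.39 in the same order, and the groups overlapped widely. The diet difference was -0.03 in conventional mice (95% interval -0.35 to 0.29) and -0.25 in germ-free mice (-0.57 to 0.07), with adjusted p of 0.914 and 0.177 in limma. Without fish oil-fed germ-free mouse 1, the lowest of its group, the second difference was -0.38 and passed (adjusted p = 0.0364 in limma). The difference between the gelatinases was not tested.

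Mmp3, or stromelysin 1, cuts proteoglycans, laminin and fibronectin and activates the precursors of other MMPs. Its lowest, median and highest values in conventional mice were 5.20, 5.76 and 6.14 with fish oil and 6.26, 6.96 and 8.41 with lard. In germ-free mice they were 6.26, 6.64 and 7.11 with fish oil and 6.99, 7.495 and 8.62 with lard. All 6 lard-fed conventional mice were above all fish oil-fed conventional mice, and 5 of 6 lard-fed germ-free mice were above all fish oil-fed germ-free mice. Mmp3 was higher with lard, 2.92-fold in conventional mice (1.55 ± 0.31 SE, adjusted p = 4e-04 in limma) and 2.06-fold in germ-free mice (1.04 ± 0.31, adjusted p = 0.00815 in limma). The rise in conventional mice was 1.03 without lard-fed mice 5 and 6 (adjusted p = 0.00567 in limma). In germ-free mice the difference was 0.49 with the liver covariate and was not called (adjusted p = 0.487).

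Mmp13, a collagenase that cuts the triple helix of fibrillar collagens, had low signals, as did Mmp3. Fish oil-fed conventional mice had values of 5.84, 6.21 and 6.46 at the lowest, median and highest, and lard-fed conventional mice 6.47, 6.68 and 7.42. The germ-free groups had 6.08, 6.33 and 6.51 with fish oil and 6.34, 6.84 and 8.06 with lard. In conventional mice the 2 diets were apart by only 0.010, and the spread among lard-fed germ-free mice came from mice 1 and 2, at 8.06 and 7.73, with the other 4 at most at 6.85. The rise with lard was 0.66 ± 0.22 SE in conventional mice (adjusted p = 0.0201 in limma) and 0.78 ± 0.22 in germ-free mice (adjusted p = 0.00475 in limma). Leaving out lard-fed conventional mouse 5 or mouse 6 alone ended the call in conventional mice, at 0.60 and 0.54 (adjusted p = 0.0506 and 0.0646 in limma), and without both it was 0.44 (adjusted p = 0.181). With the liver covariate the difference in germ-free mice was also 0.44 and not called (adjusted p = 0.365 in limma).

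Mmp14 is the membrane-type protease that cuts collagen at the cell surface. Fish oil-fed conventional mice lay between 9.29 and 9.62 with a median of 9.38, and lard-fed conventional mice between 9.43 and 10.35 with a median of 9.69. Among germ-free mice the range was 9.53 to 9.76 (median 9.64) with fish oil and 9.47 to 10.55 (median 9.60) with lard. Only lard-fed conventional mice 5 and 6, at 10.30 and 10.35, and lard-fed germ-free mouse 1, at 10.55, exceeded 10, and the other lard-fed mice were at most at 9.90. The difference with lard was 0.44 ± 0.16 SE in conventional mice (adjusted p = 0.0346 in limma) and 0.13 ± 0.16 in germ-free mice (95% interval -0.19 to 0.46, adjusted p = 0.498 in limma). The first call held in 17 of 24 fits that left out 1 mouse. It ended without any 1 of fish oil-fed conventional mice 2 to 6 (0.42 to 0.45, adjusted p from 0.0508 to 0.0651) or without lard-fed conventional mouse 5 or 6 (0.35 and 0.34), and without both of these it was 0.20 (adjusted p = 0.372 in limma). The germ-free difference was 0.35 without lard-fed mice 2, 4 and 5 (adjusted p = 0.169) and -0.20 with the liver covariate (adjusted p = 0.584 in limma).

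Mmp19 is a secreted protease of broad range that cuts basement membrane proteins. Lowest, median and highest values in conventional mice were 9.997, 10.20 and 10.38 with fish oil and 10.29, 10.60 and 11.09 with lard. In germ-free mice they were 10.17, 10.39 and 10.62 with fish oil and 10.54, 10.81 and 11.34 with lard. In each pair 5 of the 6 lard-fed mice lay above every fish oil-fed mouse. The rise was nearly equal, 0.49 ± 0.13 SE in both conventional mice (adjusted p = 0.00522 in limma) and germ-free mice (adjusted p = 0.00369 in limma), and the difference between these rises was -0.001 (95% interval -0.38 to 0.38). Without lard-fed conventional mice 5 and 6 the first was 0.30 and was not called (adjusted p = 0.0833 in limma). The second was 0.37 with the liver covariate and was not called (adjusted p = 0.211 in limma).

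**Figure D2:**
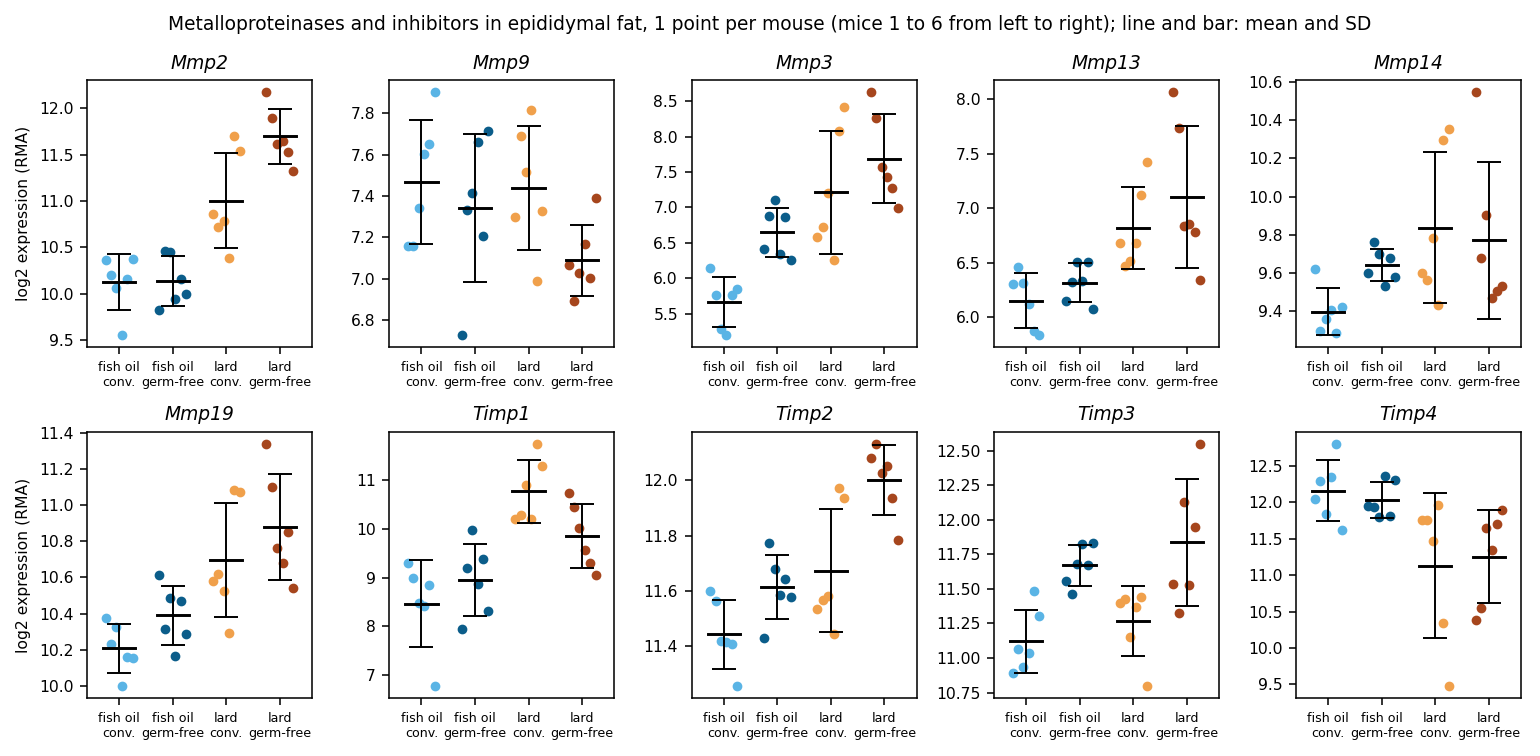
Log2 expression of the 10 genes in each of the 24 mice, 1 panel for each gene and 1 column for each group of 6, with a bar at the group mean. Timp1 lies between 10.20 and 11.75 in lard-fed conventional mice, above all fish oil-fed conventional mice, and Mmp2 separates the diets in both conventional and germ-free mice.

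Timp1 is a secreted inhibitor that is induced in inflamed and fibrotic tissue. It had the largest difference of the 10 in conventional mice. Its values were 6.77, 8.66 and 9.30 at the lowest, median and highest in fish oil-fed conventional mice and 10.20, 10.60 and 11.75 in lard-fed conventional mice. In germ-free mice they were 7.94, 9.04 and 9.97 with fish oil and 9.05, 9.79 and 10.73 with lard. All 6 lard-fed conventional mice were also above all fish oil-fed germ-free mice, whereas the 2 germ-free groups overlapped. Timp1 was 4.95-fold higher with lard in conventional mice (2.31 ± 0.39 SE, adjusted p = 6.2e-05 in limma), rank 10 of 19938 from the top. Without mice 5 and 6 the difference was 1.94 (adjusted p = 0.0013 in limma).

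In germ-free mice the Timp1 difference with lard was 0.91 ± 0.39 SE and just missed the threshold (95% interval 0.10 to 1.71, adjusted p = 0.0574 in limma). It passed in 5 of 24 fits that left out 1 mouse, which were fish oil-fed conventional mouse 6, fish oil-fed germ-free mouse 3, lard-fed conventional mouse 5 and lard-fed germ-free mice 5 and 6, with differences of 0.91 to 1.11 and adjusted p from 0.0252 to 0.0499. It also passed with median centring (0.97, adjusted p = 0.0491), array weights (0.84, adjusted p = 0.0418), a fit of only the groups compared (adjusted p = 0.0394) and without lard-fed conventional mice 5 and 6 (adjusted p = 0.0459 in limma). The mean of the liver transcripts did not overlap between the 2 germ-free groups. With that mean as a covariate the Timp1 difference turned to -0.78 (adjusted p = 0.266 in limma).

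Timp2 inhibits most MMPs and also takes part in the activation of Mmp2. Its lowest, median and highest values were 11.25, 11.42 and 11.60 with fish oil and 11.45, 11.57 and 11.97 with lard in conventional mice. Among germ-free mice they were 11.43, 11.61 and 11.77 with fish oil and 11.78, 12.04 and 12.13 with lard. The germ-free diets were just apart, by 0.010, and of the conventional lard-fed mice only 2 exceeded every fish oil-fed mouse. The rise in germ-free mice was 0.39 ± 0.09 SE (adjusted p = 0.000908 in limma) and that in conventional mice 0.23 ± 0.09 (adjusted p = 0.0472 in limma). The second call held in 10 of 24 fits that left out 1 mouse. It ended without any 1 of fish oil-fed conventional mice 3 to 6, fish oil-fed germ-free mice 3 to 6, lard-fed conventional mice 5 and 6 and lard-fed germ-free mice 1, 3, 4 and 5 (0.17 to 0.23, adjusted p from 0.0512 to 0.144), and without lard-fed conventional mice 5 and 6 it was 0.09 (adjusted p = 0.472 in limma). The germ-free difference was 0.21 with the liver covariate and was not called (adjusted p = 0.266).

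Timp3 differs from the other TIMPs in that it binds to the matrix, and it also inhibits the tumour necrosis factor convertase Adam17. Conventional mice had values of 10.89, 11.05 and 11.48 with fish oil and 10.80, 11.38 and 11.45 with lard, as lowest, median and highest. Germ-free mice had 11.46, 11.68 and 11.83 with fish oil and 11.33, 11.74 and 12.55 with lard. The diets overlapped in both. Differences with lard were 0.14 (95% interval -0.18 to 0.47, adjusted p = 0.534 in limma) and 0.16 (-0.16 to 0.49, adjusted p = 0.39). The second was 0.40 when mice 2, 4 and 5 of the lard-fed germ-free group were left out (adjusted p = 0.0933 in limma).

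Timp4 is the TIMP with the narrowest tissue range, and fat is one of the tissues that express it. It was the member called lower with lard. Its lowest, median and highest values in conventional mice were 11.62, 12.17 and 12.81 with fish oil and 9.47, 11.62 and 11.96 with lard. In germ-free mice they were 11.80, 11.95 and 12.37 with fish oil and 10.39, 11.499 and 11.90 with lard. The low values were those of lard-fed conventional mice 5 and 6, at 10.34 and 9.47, and of lard-fed germ-free mice 1 and 2, at 10.39 and 10.55, and every other mouse was above 11. Timp4 fell by 1.03 ± 0.33 SE with lard in conventional mice (adjusted p = 0.0203 in limma). The difference in germ-free mice was -0.78 ± 0.33, which missed the threshold (95% interval -1.47 to -0.08, adjusted p = 0.0594 in limma).

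The Timp4 calls depended on single mice. In conventional mice the call ended without fish oil-fed mouse 5 (-0.90, adjusted p = 0.0546), without lard-fed mouse 5 (-0.87, adjusted p = 0.0607) and without lard-fed mouse 6 (-0.70, adjusted p = 0.0654), and without lard-fed mice 5 and 6 together it was -0.42 (adjusted p = 0.259, all in limma). In germ-free mice Timp4 passed without lard-fed germ-free mouse 6 (-0.90, adjusted p = 0.0356). It also passed when lard-fed conventional mouse 6, which is in neither group and bears only on the shared spread, was left out (-0.78, adjusted p = 0.0195 in limma). Further fits in which it passed were those without lard-fed conventional mice 5 and 6 (adjusted p = 0.00651), of only the groups compared (adjusted p = 0.0147) and with array weights (-0.63, adjusted p = 0.0496 in limma).

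The diet comparisons in conventional and in germ-free mice rest on different animals, with a shared estimate of the spread. Mmp2, Mmp3, Mmp13, Mmp19 and Timp2 were called higher in both, and with the liver covariate only Mmp2 of these was called in germ-free mice (1.44, adjusted p = 0.005 in limma). Mmp14, Timp1 and Timp4 were called in conventional mice and, with all mice and no covariate, not in germ-free mice, where Timp1 and Timp4 passed under the alternatives given above. For these 3 the test of the difference between the 2 diet effects, the interaction, did not reach the threshold.

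The comparison of bacterial status sets conventional against germ-free mice at a fixed diet, where status and colony cannot be told apart. In lard-fed mice 3 members were lower in conventional than in germ-free animals, Mmp2, Timp2 and Timp3, and 0 were higher in limma, where 2 were higher at an unadjusted p under 0.05. Over all genes 8.77% were called higher and 7.48% lower in conventional mice, and the median difference was -0.23 for the 10 genes and 0.02 for all. In fish oil-fed mice 2 members were lower, Mmp3 and Timp3, and 0 were higher, also at an unadjusted p under 0.05. There 7.15% of all genes were called higher and 5.21% lower, with medians of -0.18 and -0.01. These comparisons use the same mice as the diet comparisons and are not independent of them.

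Timp3 was the only member called at both diets. Its medians were 11.38 in conventional and 11.74 in germ-free mice with lard, and 11.05 and 11.68 with fish oil. All 12 conventional mice lay below the mean of the germ-free mice on their diet, and with fish oil 5 of 6 lay below every germ-free mouse. Conventional mice were lower by 0.57 ± 0.16 SE with lard (1.48-fold, adjusted p = 0.0139 in limma) and by 0.55 ± 0.16 with fish oil (1.47-fold, adjusted p = 0.0221). The first call ended in a fit of only the lard-fed groups (adjusted p = 0.0667). The second ended without fish oil-fed conventional mouse 3 (-0.52, adjusted p = 0.0552), germ-free mouse 4 (-0.52, adjusted p = 0.0518) or germ-free mouse 6 (-0.52, adjusted p = 0.0514), and also with the liver transcript mean in the fit (-0.55, adjusted p = 0.182).

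Mmp2 and Timp2 were lower in conventional than in germ-free mice with lard and were not called with fish oil. For Mmp2 the difference was -0.70 ± 0.19 SE with lard (1.62-fold, adjusted p = 0.013 in limma) and -0.02 (95% interval -0.41 to 0.38) with fish oil. With lard, 4 of 6 conventional mice lay below every germ-free mouse, and the 2 that did not were mice 5 and 6. Timp2 differed by -0.33 ± 0.09 with lard (1.26-fold, adjusted p = 0.0106 in limma) and by -0.17 (95% interval -0.35 to 0.01) with fish oil. A fit without lard-fed germ-free mice 2, 4 and 5, whose intestinal transcripts were higher, left both differences nearly unchanged, at -0.70 and -0.29. Neither was then called (adjusted p = 0.134 and 0.174 in limma), with fewer mice in the group. The part of the intestinal transcripts was not tested.

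Mmp3 was lower in conventional than in germ-free mice with fish oil, by 0.98 ± 0.31 SE (1.97-fold, adjusted p = 0.0376 in limma). All 6 conventional mice, at most 6.14, lay below all germ-free mice, which were at least 6.26. With lard the difference was -0.48 (95% interval -1.12 to 0.16, adjusted p = 0.341 in limma). The fish oil call held in 17 of 24 fits that left out 1 mouse and ended without any 1 of conventional mice 2, 3, 4 and 5 and germ-free mice 2, 3 and 5 (-1.001 to -0.89, adjusted p from 0.0534 to 0.0882). With the mean of the liver transcripts in the fit it was -1.49 and not called (adjusted p = 0.0607).

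Timp1 was not called for bacterial status, though its difference with lard ranked 13 of 19938 from the top. Lard-fed conventional mice were 1.89-fold higher than lard-fed germ-free mice (0.92 ± 0.39 SE, 95% interval 0.12 to 1.72, adjusted p = 0.113 in limma). Of the 6, 3 lay above every germ-free mouse and all 6 above the germ-free mean. With fish oil the difference had the opposite sign, -0.48 (95% interval -1.28 to 0.32, adjusted p = 0.471). With the mean of the liver transcripts in the fit both passed, at 1.28 (adjusted p = 0.00721) and -2.02 (adjusted p = 0.0173 in limma). With fish oil that mean and bacterial status can hardly be told apart, which limits the second value.

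Removing lard-fed conventional mice 5 and 6 changed the lard comparison of bacterial status more than the counts above show. Without them 5 members were lower in conventional mice, Mmp2 (-1.01), Mmp3 (-0.996, adjusted p = 0.00612), Mmp19 (-0.37, adjusted p = 0.0245), Timp2 (-0.47) and Timp3 (-0.50, adjusted p = 0.0312), and Mmp9 was higher (0.49, adjusted p = 0.0297 in limma). With all 6 mice Mmp9 was at 0.35 (adjusted p = 0.135), and it also passed without mouse 5 alone (0.44, adjusted p = 0.0497). Mmp3 and Mmp19 with all mice were at -0.48 and -0.18. The share of all genes called in that fit is not given, so these counts do not show whether the members moved more than other genes. Other lists moved in that fit too. Of 11 genes each, the number called lower went from 2 to 6 for macrophage and for progenitor and fibroblast markers. For lipid-associated macrophage markers it went from 1 to 8, with 1 higher in both fits. Adipocyte markers had 1 of 10 lower in both fits and went from 0 to 2 higher.

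The interaction subtracts the diet effect of germ-free mice from the diet effect of conventional mice, which is the same number as the status difference under lard less the one under fish oil. In limma 0 of the 10 members passed, with 1 higher (Timp1) and 1 lower (Mmp2) at an unadjusted p under 0.05. Over all genes 2.81% were called higher and 4.38% lower, and the medians were -0.01 for the 10 and 0.04 for all. For Timp1 the interaction was 1.40 ± 0.55 SE (95% interval 0.27 to 2.53, unadjusted p = 0.0173, adjusted p = 0.125 in limma). For Mmp2 it was -0.68 ± 0.27 (95% interval -1.23 to -0.12, unadjusted p = 0.0184, adjusted p = 0.13 in limma). Timp1 thus had its larger diet difference in conventional mice and Mmp2 in germ-free mice, without either interaction passing over all genes. Neither order held for its whole family, since Timp2 had the larger difference in germ-free mice and Mmp3 in conventional mice. For Mmp14 it was 0.31 (95% interval -0.15 to 0.77) and for Timp4 -0.26 (-1.23 to 0.72).

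With all mice the interaction of neither Mmp2 nor Timp1 passed, and leaving out 1 mouse changed that only for Mmp2. Mmp2 passed without lard-fed conventional mouse 5 (-0.82, adjusted p = 0.0472) and without mice 5 and 6 (-0.99, adjusted p = 0.00507 in limma). Timp1 passed in 0 of 24 fits that left out 1 mouse. It was 3.30 and passed with the mean of the liver transcripts in the fit (adjusted p = 0.00333 in limma). That mean can hardly be told apart from bacterial status with fish oil or from diet in germ-free mice.

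Within the lard-fed groups most members varied together across mice, while Mmp9, Timp3 and Timp4 did not follow them. Lard-fed conventional mouse 5 had the highest value of 5 members and mouse 6 of 3, and together these were Mmp2, Mmp3, Mmp13, Mmp14, Mmp19, Timp1, Timp2 and Timp3. Timp3 was highest in mouse 5, at 11.445, but lowest in mouse 6, at 10.796, and Mmp9 was lowest in mouse 5, at 6.989. Mouse 4 of that group was lowest for 5 members, Mmp2, Mmp3, Mmp14, Mmp19 and Timp2, and highest for Mmp9 and Timp4. Among lard-fed germ-free mice, mouse 1 was highest for 6, Mmp2, Mmp3, Mmp13, Mmp14, Mmp19 and Timp1, and lowest for Timp4. Mouse 6 was lowest for 6, Mmp2, Mmp3, Mmp13, Mmp19, Timp1 and Timp2, and highest for Mmp9, Timp3 and Timp4. Timp4 was thus highest in the mice where most proteases were lowest, and it was lowest in lard-fed conventional mouse 6 and lard-fed germ-free mouse 1.

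**Figure D3:**
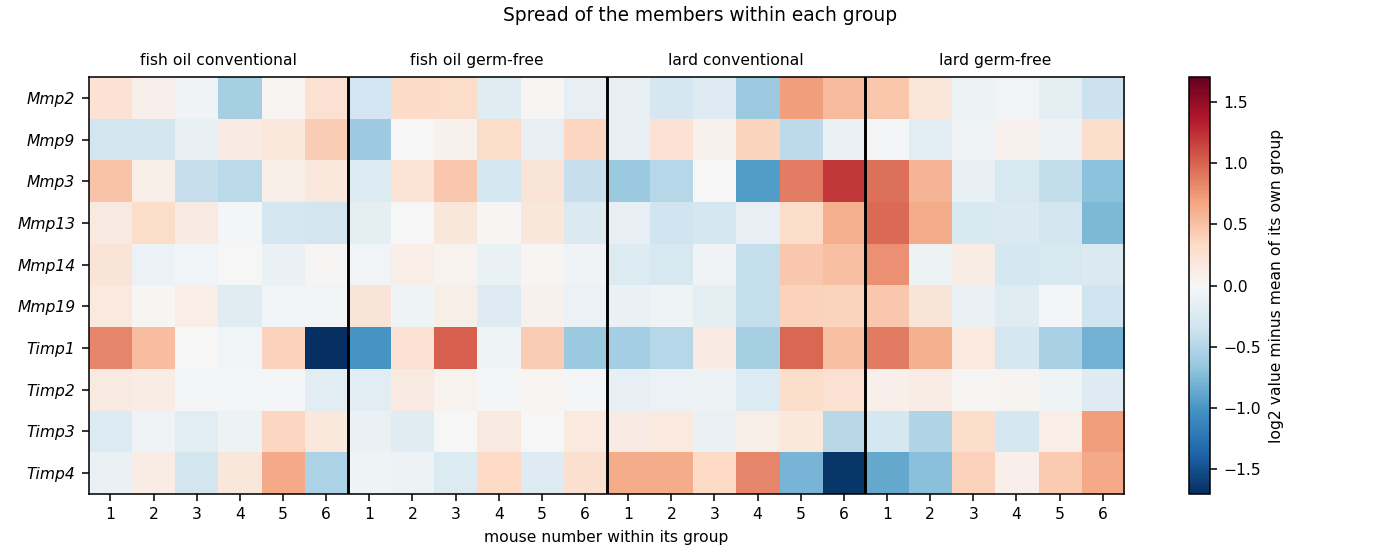
Deviation of each mouse from its group mean, in log2 units, for the 10 genes (rows) and 24 mice (columns, by group), red for above and blue for below. Lard-fed conventional mice 5 and 6 and lard-fed germ-free mice 1 and 2 are red for Mmp2, Mmp3, Mmp13, Mmp19 and Timp1 and blue for Timp4.

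Among these mice the lipid-associated macrophage mean was higher, and the adipocyte mean lower, where most members were higher. The lipid-associated macrophage mean was 12.61 and 12.62 in lard-fed germ-free mice 1 and 2 and 11.98 in mouse 6, and the adipocyte mean was 12.52 and 12.47 in mice 1 and 2 and 12.87 in mouse 6. The mean over 11 progenitor and fibroblast markers was 11.17 and 11.06 in lard-fed conventional mice 5 and 6, with the other 4 at most at 10.79. Among fish oil-fed conventional mice, mouse 1 had the highest value of 5 members and mouse 6 the lowest of 4, with Timp1 at 6.77 in mouse 6 and at least 8.42 in the other 5. Mouse 6 also had the highest liver transcript mean of its group, 8.81 against at most 7.58, and the lowest mesothelial mean, 8.45 against at least 8.94, whose part in its Timp1 value was not tested.

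Cell type markers also differed between the diets. Of 11 macrophage markers, 9 were higher and 1 lower with lard in conventional mice, and 8 were higher and 2 lower in germ-free mice. The mean of these markers ranged from 9.67 to 10.12 in fish oil-fed and 10.19 to 10.89 in lard-fed conventional mice, and from 9.69 to 10.30 and 10.52 to 10.96 in germ-free mice. Of 11 lipid-associated macrophage markers 8 and 5 were higher and 0 lower, with means of 10.38 to 11.57 (fish oil) and 11.49 to 12.57 (lard) in conventional mice and of 11.54 to 12.01 and 11.98 to 12.62 in germ-free mice. Progenitor and fibroblast markers were higher for 6 and 9 of 11, with means of 10.21 to 10.63 and 10.59 to 11.17 in conventional mice and of 10.39 to 10.57 and 10.77 to 11.17 in germ-free mice.

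Adipocyte markers were lower with lard for 9 and 7 of 10, with means of 12.91 to 13.03 (fish oil) and 12.41 to 12.83 (lard) in conventional mice and of 12.87 to 13.05 and 12.47 to 12.87 in germ-free mice. Mesothelial markers were lower for 7 and 5 of 8, with means from 8.45 to 9.57 and 7.83 to 8.60 in conventional mice. Neutrophil markers had low means, at most 6.85 in any mouse, and 2 were higher and 3 lower of 8 in conventional mice and 4 lower in germ-free mice. Endothelial markers had a median difference of 0.16 in conventional mice, and 3 of 8 were lower in germ-free mice, and epididymis transcripts had means of at most 6.10. With the liver covariate, in germ-free mice 4 macrophage markers were higher and 0 lower, and 0 lipid-associated macrophage markers were higher and 1 lower. There 5 progenitor and fibroblast markers were higher and 0 lower, and 0 adipocyte markers were higher and 1 lower. Without lard-fed conventional mice 5 and 6, adipocyte markers in conventional mice were 1 higher and 6 lower. The part of these markers in the differences of the proteases and TIMPs was not tested.

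Other proteases of the family were counted in the same way. Of 17 further Mmp genes 16 were measured, and with lard 2 were higher and 1 lower in conventional mice, against 2 higher and 2 lower in germ-free mice, with medians of 0.00 and -0.04. Mmp12, the macrophage elastase and a neighbour of Mmp13, rose by 1.00 ± 0.24 SE in conventional mice (adjusted p = 0.00203 in limma) and was at 0.46 in germ-free mice (adjusted p = 0.112). Mmp11, stromelysin 3, rose in both, by 0.44 (adjusted p = 0.00402) and 0.95 (adjusted p = 9.65e-07), and was lower by 0.79 in conventional than in germ-free mice with lard (adjusted p = 0.000279 in limma). Mmp28 was lower by 0.36 with lard in conventional mice (adjusted p = 0.00674), and in germ-free mice Mmp27 was higher by 0.38 (adjusted p = 0.00609), while Mmp17 and Mmp21 were lower by 0.22 and 0.29 (adjusted p = 0.0076 and 0.00759, all in limma). Without lard-fed germ-free mice 2, 4 and 5 these 3 were not called (0.32, -0.18 and -0.20, adjusted p = 0.0601, 0.114 and 0.171). With the liver covariate Mmp27 and Mmp17 were not called (adjusted p = 0.148 and 0.0617), and without lard-fed conventional mice 5 and 6 Mmp11 and Mmp28 were not called in conventional mice (0.28 and -0.26, adjusted p = 0.0638 and 0.0813 in limma). Mmp21 in germ-free mice was at -0.65 with the liver covariate (adjusted p = 0.00103 in limma).

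The neighbours of Mmp3 and Mmp13 on chromosome 9 were mostly not called. The order of genes is Mmp13, Mmp12, Mmp1b, Mmp3, Mmp1a, Mmp10, Mmp8, Mmp27, Mmp20 and Mmp7. Of the 8 that are not members, 1 was called higher with lard in conventional mice (Mmp12) and 1 in germ-free mice (Mmp27). The medians over the 8 were 0.02 and -0.01. For comparison, 15.4% and 20.4% of all genes were called higher. The mean over the 8 was low in every mouse, between 5.97 and 6.42, and below the cut of 6.985 in the filter on low values. RMA, which made the values, compresses low signals, so small differences at such levels do not show a lack of response. Mmp10, whose promoter window above holds the same motif as that of Mmp3, was at -0.03 (95% interval -0.16 to 0.09) and -0.10 (-0.23 to 0.03). With the liver covariate the second value was -0.31 and Mmp10 was called lower (adjusted p = 0.0203 in limma). Mmp8, the neutrophil collagenase, was at 0.03 and -0.01 (95% intervals -0.26 to 0.31 and -0.29 to 0.28). With fish oil, Mmp12 was lower in conventional than in germ-free mice by 1.13 (adjusted p = 0.00306 in limma), in the same direction as Mmp3.

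AP-1 subunits, which bind the motif shown, were counted as well. Of 7 subunits, 2 were higher with lard in conventional mice, Fos by 0.88 (adjusted p = 0.00314) and Fosl1 by 0.76 (adjusted p = 0.000254 in limma). In germ-free mice 1 was higher, Fos by 1.03 (adjusted p = 0.000535), and 2 were lower. With the liver covariate 1 was higher there, Fos at 1.08 (adjusted p = 0.0412), and 1 lower, Fosl2 at -0.83 (adjusted p = 0.000538 in limma). Medians over the 7 were 0.19 and 0.07. No binding was measured.

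ADAM and ADAMTS proteases are relatives that shed proteins from the cell surface or cut proteoglycans, and several are inhibited by Timp3. Of 15 measured, 5 were higher and 0 lower with lard in conventional mice and 8 higher and 2 lower in germ-free mice, with medians of 0.30 and 0.35. Adam8, a protease of myeloid cells, rose by 2.09 ± 0.27 SE and 1.59 ± 0.27 (adjusted p = 2.87e-06 and 4.66e-05 in limma). Adam17, which releases tumour necrosis factor, rose by 0.55 and 0.93 (adjusted p = 0.00317 and 1.14e-05). Adam9, Adam10 and Adam19 rose in both, by 0.30, 0.39 and 0.32 in conventional and 0.66, 0.35 and 0.42 in germ-free mice. Adamts1 was at 0.26 and 0.00 and did not pass (adjusted p = 0.326 and 0.989), and Adamts9 was lower by 0.75 in germ-free mice (adjusted p = 0.000349 in limma).

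The plasminogen system makes plasmin, which can activate MMP precursors. Of 7 genes measured, 3 rose with lard in conventional mice, while 2 rose and 2 fell in germ-free mice, with medians of 0.22 and -0.21. The urokinase gene Plau rose by 0.76 and 0.91 (adjusted p = 0.000529 and 5.56e-05), and Tfpi2, an inhibitor of plasmin and other serine proteases, by 1.32 and 0.87 (adjusted p = 6.19e-07 and 5.56e-05 in limma). The urokinase receptor Plaur rose by 0.82 in conventional mice (adjusted p = 1.96e-05) and was at -0.21 in germ-free mice (adjusted p = 0.162), and the test of that difference passed (1.03 ± 0.17 SE, adjusted p = 0.00164 in limma). With the liver covariate Plaur was at -0.605 in germ-free mice and was called lower (adjusted p = 0.0266 in limma). Plg and Serpinf2, both liver products, fell by 1.53 and 0.71 with lard in germ-free animals (adjusted p = 7.7e-07 and 1.38e-05), beside the higher liver transcript means of fish oil-fed germ-free mice, whose part was not tested. Plg was at -0.43 with the liver covariate and stayed called (adjusted p = 0.0399 in limma).

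Among 12 genes that activate, anchor or clear MMPs, 5 were higher and 1 lower with lard in conventional mice and 5 higher and 2 lower in germ-free mice, with medians of 0.23 and 0.11. Cd44, a hyaluronan receptor that holds Mmp9 at the cell surface, rose by 1.25 and 1.13 (adjusted p = 2.07e-05 and 4.54e-05). Sdc1, a heparan sulphate proteoglycan, rose by 1.18 and 0.89 (adjusted p = 2.52e-05 and 0.000365 in limma). Spock2, a matrix proteoglycan, fell by 0.80 and 0.57 (adjusted p = 0.000183 and 0.0031). Reck, a membrane-anchored inhibitor of Mmp2, Mmp9 and Mmp14, was at -0.06 in conventional mice (adjusted p = 0.519) and rose by 0.25 in germ-free mice (adjusted p = 0.00385), and its interaction was -0.31 (adjusted p = 0.044 in limma). Reck was also lower in conventional than in germ-free mice with lard, by 0.26 (adjusted p = 0.00781). As for Mmp2 and Timp2, that call ended when mice 2, 4 and 5 of the lard-fed germ-free group were left out (-0.20, adjusted p = 0.209), and so did those of Reck with lard in germ-free mice (0.18, adjusted p = 0.0941) and in the interaction (-0.25, adjusted p = 0.286 in limma). These differences kept their direction, and that fit had fewer mice.

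Without lard-fed conventional mice 5 and 6 the counts with lard in conventional mice were 1 higher and 0 lower of 16 other MMPs, 6 and 0 of 15 ADAM and ADAMTS genes, 3 and 0 of 7 plasminogen genes and 3 and 1 of 12 activators, anchors and clearance genes. For the AP-1 subunits they were 2 and 0 of 7. In germ-free mice without lard-fed mice 2, 4 and 5 they were 1 higher and 0 lower, 7 and 1, 2 and 2, and 3 and 1, in the same order of the first 4 lists. With the liver covariate they were 1 and 4, 4 and 3, 0 and 2, and 2 and 1. That fit ended the germ-free calls of Adam8 (1.10, adjusted p = 0.0731), Plau (0.71, adjusted p = 0.0536), Tfpi2 (0.61, adjusted p = 0.075), Cd44 (0.81, adjusted p = 0.0656), Sdc1 (0.86, adjusted p = 0.0509) and Serpinf2 (-0.23, adjusted p = 0.225 in limma). It also ended those of Adam19 (0.29, adjusted p = 0.0956), Syn1 (0.30, adjusted p = 0.207) and Syn2 (-0.30, adjusted p = 0.268 in limma). Leaving out those 3 germ-free mice ended the calls of Syn2 (-0.25, adjusted p = 0.223) and Spock2 (-0.43, adjusted p = 0.0822 in limma).

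**Figure D4:**
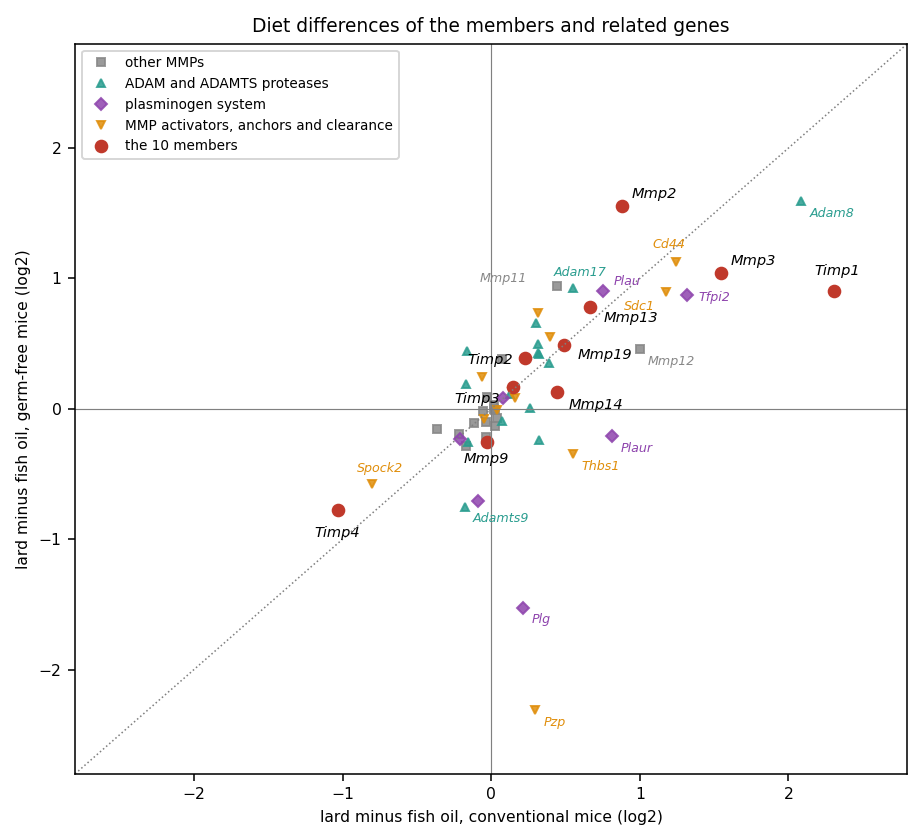
Difference with lard (log2, lard minus fish oil) in conventional mice on the horizontal axis and in germ-free mice on the vertical axis, for the 10 genes (red) and for related genes by list, with a dotted line of equal differences. Timp1 (2.31 and 0.91) lies below the line and Mmp2 (0.88 and 1.56) above it, and Adam8 (2.09 and 1.59) is farthest to the upper right.

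The synapsin genes that enclose 3 of the TIMPs were examined for shared movement. Syn1, which encloses Timp1, was higher with lard by 0.39 in conventional (adjusted p = 0.00738) and 0.51 in germ-free mice (adjusted p = 0.000508 in limma). Without lard-fed conventional mice 5 and 6 the first was 0.27 and was not called (adjusted p = 0.056 in limma). Syn2, which encloses Timp4, was lower by 0.28 in germ-free mice (adjusted p = 0.0499) and at -0.21 in conventional mice (adjusted p = 0.181). Syn3, which encloses Timp3, was at -0.32 and -0.28 (adjusted p = 0.0523 and 0.0682), opposite in sign to Timp3, which was at 0.14 and 0.16. For bacterial status 0 of the 3 synapsin genes were called at either diet in limma, also at an unadjusted p under 0.05, whereas Timp3 was called at both.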

How the data were processed

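RNA of 24 mice was hybridised to 1 one-colour Affymetrix array each (250 ng total RNA, per the labels' protocols). The deposited values are log2 expression values for each probe set, made by the authors with RMA, per the submitters' processing notes. The method corrects background, makes the arrays' distributions alike and combines the probes of a probe set, and it compresses low signals. The version, the annotation and scan batches are not given in these sources, so no batch was tested. Of 35556 probe sets, 21789 had 1 gene symbol in the platform annotation, 1621 several and 12146 none. Symbols were updated by Entrez ID (21698 matched), and the probe set with the highest mean stood for a gene, which left 19938 genes.

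The 4 group means were fitted in limma 3.58.1 (R 4.3.3; lmFit, then eBayes) over all 24 arrays, and 5 contrasts were tested two-sided with Benjamini-Hochberg adjustment over all genes at 0.05. All adjusted p-values are limma's. The fit was tested on simulated data. The p-values reflect the variation among mice, and precision is limited by how many arrays there are. The members and all lists were chosen with earlier results of these data known, and leaving out lard-fed conventional mice 5 and 6, lard-fed germ-free mice 2, 4 and 5, and the liver covariate follow such results.

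The text names all 10 members, up to 6 genes of each related list with the largest called change, and Mmp8, Mmp10, Mmp11, Mmp12, Reck, Plau, Plaur, Adamts1, Syn1, Syn2 and Syn3 whatever their values, not all of which are described. Adamts9, Mmp17, Mmp21 and Mmp28 complete small counts. Protein stretches, which the rule allowed, are not shown. Promoters are from RefSeq (GRCm38.p6), in which 7 of the 10 members matched. Python 3.11.15, pandas 2.3.3, numpy 2.4.6 and matplotlib 3.10.9 handled tables and figures. Alternatives were median centring, repeated quantile normalization, a filter on genes under the 40th percentile, the mean of all probe sets, all probe sets, array weights, a trended robust prior, a block for the mouse number, fits of only the groups compared, a change of 1.5-fold or more, and fits without each mouse in turn.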

Additional observations from a re-analysis of the deposited data

Results flagged for a closer look

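Of 40 sets of 6 values (10 genes in 4 groups), 1 held a mouse far from the others of its group. Timp1 in fish oil-fed conventional mouse 6 was 6.768 on the log2 scale and the nearest of the other 5 mice was at 8.417, a gap that is 0.653 of the group's range, above Dixon's critical value for 6 values. By chance such a gap appears in about 1 of 20 sets. Without this mouse the Timp1 difference with lard in conventional mice was 1.97 (adjusted p = 0.000143 in limma).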

How the results depend on the processing

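With all mice, 8, 5, 3, 2 and 0 of the 10 members were called for lard in conventional mice, lard in germ-free mice, bacterial status with lard, bacterial status with fish oil, and the interaction. Of the 50 differences under 13 alternatives, 20 had no value (Mmp3 and Mmp13 under the filter on low values, and the interaction in fits of only the groups compared), 564 kept direction and side of the threshold, 31 no longer passed, 17 newly passed and 18 changed sign, 0 of which were of a called difference; over the 24 fits that left out 1 mouse these were 1118, 36, 10 and 36. The counts moved to 3 (lard, germ-free) and 1 (status, fish oil) with the filter on low values, which leaves out Mmp3 and Mmp13; to 5 (lard, conventional) and 1 (interaction, Mmp2) with array weights; to 1 (status, fish oil) with a trended robust prior; and to 5, 3, 1 and 1 in the first 4 comparisons at 1.5-fold or more. Without lard-fed conventional mice 5 and 6 they were 3 (lard, conventional), 6 (status, lard) and 1 (interaction, Mmp2), while lard in germ-free mice rose to 7 with Timp1 and Timp4, as it did with array weights and with only the groups compared. Without lard-fed germ-free mice 2, 4 and 5 it was 1 (status, lard). With the liver covariate it was 1 for lard in germ-free mice (Mmp2), 1 for status with fish oil and 1 for the interaction (both Timp1). Fits of only the groups compared ended the calls of Timp2 and Timp4 for lard in conventional mice and of Timp3 for status with lard. Those fits newly called Mmp14 for status with fish oil. Without 1 mouse the counts ranged from 4 to 8 for lard in conventional mice, the lowest without lard-fed mouse 5 or 6, from 0 to 2 for status with fish oil, with 0 without fish oil-fed conventional mouse 3, and from 0 to 1 for the interaction, with 1 without lard-fed conventional mouse 5. These counts stand without the share of all genes called in the same fits, so they do not show whether the members moved more than other genes. The cause of these moves was not tested beyond what each alternative removes.

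The sign changes include Timp1 for lard in germ-free mice (0.906 with all mice) and Mmp3 in the interaction (0.503). Mmp2 for status with fish oil was 0.049 with median centring. In the interaction Mmp19 and Timp3 were 0.038 and 0.016 with repeated quantile normalization. With array weights Mmp9 for lard in conventional mice was 0.092, and for status with lard Mmp14 was -0.026 and Timp4 0.051. Without lard-fed conventional mice 5 and 6, Mmp9 for lard in conventional mice was 0.111, Mmp14 and Timp4 for status with lard were -0.177 and 0.485, and Mmp3, Timp3 and Timp4 in the interaction were -0.015, 0.052 and 0.354. Mmp14 for status with lard was -0.155 when germ-free mice 2, 4 and 5 on lard were left out. With the liver covariate, Mmp14 and Timp1 for lard in germ-free mice were -0.195 and -0.778, and Mmp13, Mmp19 and Timp2 in the interaction were 0.270, 0.133 and 0.039. Without 1 mouse, Mmp9 for lard in conventional mice ranged from -0.105 to 0.061, Mmp14 for lard in germ-free mice from -0.025 to 0.191, Mmp14 and Timp4 for status with lard from -0.036 to 0.222 and from -0.300 to 0.205, and Mmp2 for status with fish oil from -0.080 to 0.097. In the interaction Mmp13 ranged from -0.272 to 0.072, Mmp19 from -0.079 to 0.092, Timp3 from -0.122 to 0.123 and Timp4 from -0.430 to 0.074.

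Mice share only a number across groups: same-numbered mice of different groups deviated together in 9 of 36 pairs (correlation over 0.1, range -0.497 to 0.351). With the replicate block 1 call ended, that of Timp2 for lard in conventional mice (0.230, adjusted p = 0.0678 in limma). Low signals limit Mmp3 and Mmp13, with means of 6.80 and 6.597.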
